A study of Mus musculus with 9 samples.

Results

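The Notch pathway genes described here are 10 named genes, namely the receptors Notch1, Notch2 and Notch3, the ligands Dll1, Dll3 and Jag1, and the transcription factors Hes1, Hes5, Hes6 and Hey1. They were chosen by name, and all 10 were found among the 22180 genes for which the array has a probe set that names 1 gene. RNA of mouse brain lesions was hybridized to 9 Affymetrix MoGene-2_0-st arrays, with 3 arrays in each of 3 groups. P3 tumors arose in mice in which Cre removes p53 and turns on a human PDGFRα transgene driven by the CAG promoter, after a lentivirus carrying constitutive Cre and a doxycycline (DOX) inducible human PDGF-A was injected into the striatum of adults. The labels give their genotype as hPDGF-A;hPDGFRα;p53lox, and the 3 low-DOX tumors came from mice on 25 mg/kg DOX whereas the 3 high-DOX tumors came from mice on 600 mg/kg DOX. The 3 OPC lesions, of oligodendrocyte precursor cells (OPCs), came from mice on 600 mg/kg DOX. The labels give these a genotype of hPDGFRα;p53, while the study's text describes the same kind of virus in conditional p53 mice with no receptor transgene, so the groups cannot be defined more closely than this. By that text all 9 samples share the virus and a conditional p53 background, but cells of the OPC lesions expressed p53 at wild-type level whereas P3 tumor cultures lacked it. The high-DOX tumors and the OPC lesions share a diet, for which the text gives a slightly higher dose than the labels do. Ages at collection were not given. The labels call the arrays biological replicates without tying them to named mice, so p values measure the spread between these samples.

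Notch signaling passes between touching cells. A Delta-like or Jagged ligand on one cell binds a Notch receptor on its neighbor, proteases then free the intracellular part of the receptor, and this part joins the DNA-binding protein RBPJ to turn on target genes. Hes and Hey genes are the classical targets and encode repressors of proneural transcription factors, while Hes6 is known to counter Hes1. In the developing brain the pathway maintains progenitors and holds back neuronal and oligodendrocyte differentiation, and in vessels NOTCH3 marks pericytes and smooth muscle. Dll3 differs from the other ligands in that it acts mainly inside the cell as an inhibitor of Notch signaling. Since each sample is a whole lesion, fewer cells of a type and less RNA per cell cannot be told apart.

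The promoters of 3 members are shown, that of Hes5 because it holds the binding core of RBPJ. Those of Dll1 and Dll3 are shown because this pair had the highest Pearson r of the members across the arrays and the windows hold an E-box. That r did not pass after adjustment. The other Dll1 window holds no E-box, while windows of Jag1 and Hes6 also hold one. Each sequence runs from 250 bases before to 50 bases after a start site in RefSeq (GRCm38.p6), 5′ to 3′ on the strand of the gene. In Hes5 the capitals mark TGGGAA on either strand, the core of the RBPJ site, and in Dll1 and Dll3 they mark CAGCTG, an E-box that proneural factors bind. The windows are chr4:154960673-154960972 (plus strand) for Hes5, chr17:15376883-15377182 (minus strand) for Dll1 and chr7:28301736-28302035 (minus strand) for Dll3.
Hes5: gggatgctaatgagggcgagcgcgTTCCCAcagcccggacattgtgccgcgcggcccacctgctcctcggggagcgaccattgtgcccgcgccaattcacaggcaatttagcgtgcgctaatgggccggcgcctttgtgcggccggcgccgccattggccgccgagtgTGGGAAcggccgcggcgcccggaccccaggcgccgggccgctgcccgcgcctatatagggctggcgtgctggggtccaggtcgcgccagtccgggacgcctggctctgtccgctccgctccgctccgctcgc
Dll1: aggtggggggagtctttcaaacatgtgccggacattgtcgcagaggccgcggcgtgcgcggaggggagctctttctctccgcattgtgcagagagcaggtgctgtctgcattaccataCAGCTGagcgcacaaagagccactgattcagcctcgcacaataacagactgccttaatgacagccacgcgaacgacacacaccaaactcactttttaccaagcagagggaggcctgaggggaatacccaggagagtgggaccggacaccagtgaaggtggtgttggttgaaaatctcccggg
Dll3: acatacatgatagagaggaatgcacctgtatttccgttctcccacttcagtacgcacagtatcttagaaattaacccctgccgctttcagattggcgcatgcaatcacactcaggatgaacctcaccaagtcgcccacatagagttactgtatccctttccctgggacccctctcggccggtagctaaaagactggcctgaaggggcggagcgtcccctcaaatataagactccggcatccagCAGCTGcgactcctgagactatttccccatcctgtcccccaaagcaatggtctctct

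The RefSeq table used here gave 10 such windows for 8 of the members, and windows of Hes1 and Hey1 were not used here. TGGGAA was found on either strand in 1 of the 10 windows, that of Hes5, where it stood at positions -226 and -82 from the start site. Of all 32851 mouse promoter windows of this length, 25.6% held it. CAGCTG, which reads the same on both strands, stood in 5 of the 10 windows against 16.3% of all windows. These were the second Dll1 window at -132, Dll3 at -7, Jag1 at -82 and both Hes6 windows at -150 and -171. The N-box CACNAG, a Hes repressor site, was found on either strand in 5 of the 10 windows and in 42.5% of all windows. It overlapped neither of the other motifs in a member. A match describes the letters of the window only.

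All values below are the deposited log2 array values. A difference of 1 is a doubling of the signal, and levels of different genes cannot be compared because probe sets respond differently. Every member had a value in every array, and no filter on low values was applied. Across the 9 arrays Notch2 varied most, with a range of 3.31 log2 units, followed by Hes5 with 3.13 and Dll3 with 2.43. Hes6 had a range of 0.75 and Notch3 of 0.87, the narrowest of the members. In GRCm38.p6 the genes lie on chromosome 2 (Notch1 and Jag1), 3 (Notch2 and Hey1), 17 (Notch3 and Dll1), 7 (Dll3), 16 (Hes1), 4 (Hes5) and 1 (Hes6). The plot of member levels by array shows the values of each.

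**Figure D1:**
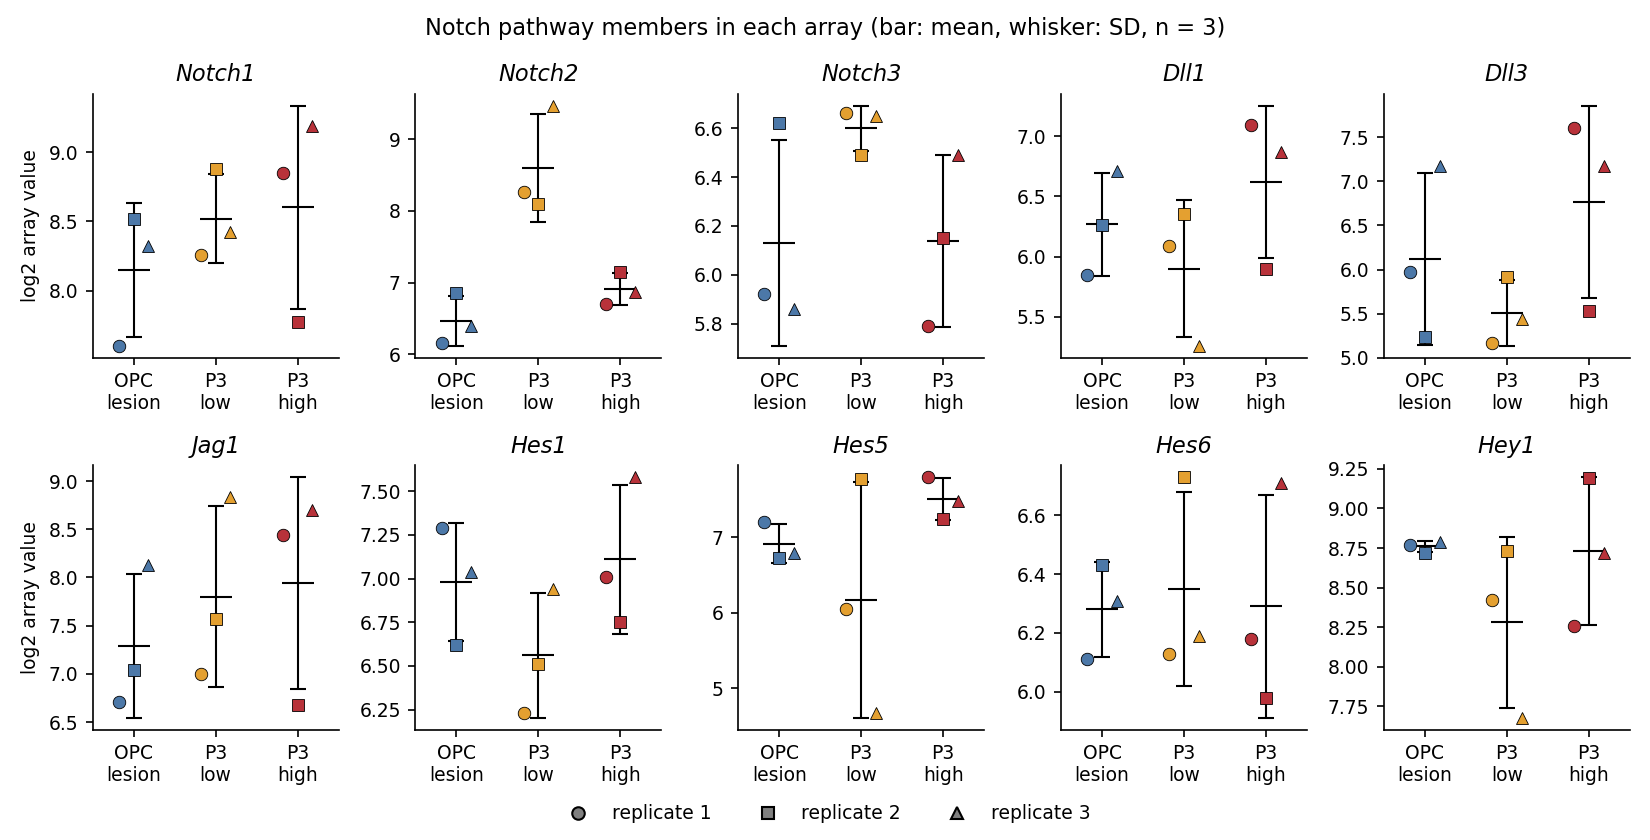
Deposited log2 values of the 10 Notch pathway members in each array. The vertical axis of each panel is the log2 array value on its own scale, points are arrays with the replicate number as the symbol, horizontal bars are group means and whiskers are SDs (n = 3). The 3 low-DOX values of Notch2 lie between 8.09 and 9.47, above the other 6 arrays.

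Among the receptors, Notch2 set the low-DOX tumors apart from the other arrays by its values, though no difference passed after adjustment. Notch2 encodes a Notch receptor expressed by many cell types of the brain, and lies at chr3:98013538-98150367 (GRCm38.p6). Its values were 8.26, 8.09 and 9.47 in the low-DOX tumors, 6.70, 7.15 and 6.87 in the high-DOX tumors and 6.16, 6.85 and 6.40 in the OPC lesions. All 3 low-DOX tumors lay above the other 6 arrays, whereas the high-DOX tumors and the OPC lesions overlapped. The group means were 8.60 ± 0.755, 6.91 ± 0.226 and 6.47 ± 0.351 (SD, n = 3). High DOX was lower than low DOX by a log2 difference of -1.70 (95% interval -2.54 to -0.85), a signal ratio of 3.24. The limma adjusted p, by Benjamini-Hochberg over the 22180 genes, was 0.376 (unadjusted p = 0.00174), so the difference did not pass the threshold of 0.05. Low DOX against OPC lesion gave a log2 difference of 2.13 (95% interval 1.29 to 2.98; limma adjusted p = 0.297, unadjusted p = 0.000415). High DOX against OPC lesion gave 0.44 (95% interval -0.41 to 1.28; limma adjusted p = 1). The mean of both doses exceeded the OPC lesions by 1.29 (95% interval 0.55 to 2.02; limma adjusted p = 0.974). Exact two-sided permutation tests over the arrays gave p = 0.1 for each of the first pair of comparisons, the smallest p that 3 against 3 allows, and p = 0.0833 for both doses against the OPC lesions, where 0.0119 is the smallest.

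The low-DOX value of Notch2 depended on the third replicate in size but not in side. Without that array the high against low difference was -1.26 and the low DOX against OPC lesion difference was 1.70, and the values 8.26 and 8.09 of the remaining low-DOX tumors still exceeded the highest value elsewhere, 7.15. Markers of other cells differed between the same groups. The mean of 14 microglia and macrophage markers was between 7.76 and 8.69 in low-DOX tumors and between 6.23 and 6.98 in high-DOX tumors, and 12 of the 14 had a lower mean at high DOX. The mean of 11 mural cell markers was between 6.89 and 7.43 in low-DOX and between 6.33 and 6.87 in high-DOX tumors, with 9 of the 11 lower at high DOX. All 13 neuron markers had a higher mean at high DOX, where their list mean was between 6.78 and 10.59 against 5.49 to 6.70 at low DOX. All 6 fibroblast markers and all 10 myelinating oligodendrocyte markers had a lower mean at high DOX, with median log2 differences of -1.80 and -1.54. Both list means overlapped between the doses. For fibroblast markers they were 6.53 to 10.46 at low DOX and 5.47 to 6.92 at high DOX. For myelinating oligodendrocyte markers they were 7.84 to 10.92 and 6.59 to 7.86. In low DOX against OPC lesion the median differences were 2.22 for fibroblast (6 of 6 higher), 0.98 for myelinating oligodendrocyte (10 of 10 higher), 1.16 for microglia and macrophage (12 of 14 higher), 0.27 for mural (9 of 11 higher) and -2.10 for neuron markers (13 of 13 lower). By array, the fibroblast, myelinating oligodendrocyte and neuron list means overlapped between these groups, with exact permutation p values of 0.2, 0.7 and 0.3. Markers of a list share the same arrays, so counts of markers are not replicates. The part of these cells in the Notch2 result was not tested.

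Notch3, a receptor characteristic of vascular mural cells, had the same order of groups with smaller gaps. Its values were 6.66, 6.49 and 6.65 in low-DOX tumors, 5.79, 6.15 and 6.49 in high-DOX tumors and 5.92, 6.62 and 5.86 in OPC lesions. The doses did not overlap only by less than the rounding, since the lowest low-DOX and the highest high-DOX values both print as 6.49. The high against low difference was -0.46 (95% interval -1.02 to 0.11; limma adjusted p = 0.556), and that of low DOX against OPC lesion was 0.47 (95% interval -0.09 to 1.03; adjusted p = 0.552). High DOX and OPC lesion differed by 0.01 (95% interval -0.55 to 0.58). The mural marker list was also highest in low-DOX tumors, with a mean of 7.21 against 6.61 in OPC lesions and 6.57 in high-DOX tumors. The part of mural cells in the Notch3 values was not tested. Notch1, the receptor most studied in neural progenitors, did not separate any groups. Its values were 8.26, 8.88 and 8.42 in low-DOX tumors, 8.85, 7.77 and 9.19 in high-DOX tumors and 7.60, 8.52 and 8.32 in OPC lesions. The second high-DOX tumor and the first OPC lesion were the lowest of the 9 arrays. The high against low difference was 0.08 (95% interval -0.84 to 1.0; limma adjusted p = 0.961). Low DOX and high DOX were above OPC lesions by 0.38 and 0.46, with intervals of -0.54 to 1.29 and -0.46 to 1.37.

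The ligands differed more within groups than between them. Dll3 had values of 7.60, 5.53 and 7.17 in high-DOX tumors, 5.17, 5.91 and 5.44 in low-DOX tumors and 5.97, 5.23 and 7.17 in OPC lesions. Thus 2 high-DOX tumors and 1 OPC lesion were at 7.17 or above and the other 6 arrays were between 5.17 and 5.97, so the high values crossed the group labels. The high against low difference was 1.26 (95% interval -0.19 to 2.72; limma adjusted p = 0.537). It was 0.85 without the first high-DOX tumor and 1.88 without the second. Low DOX against OPC lesion gave -0.61 (95% interval -2.07 to 0.84) and high DOX against OPC lesion gave 0.65 (95% interval -0.81 to 2.10). The former was -0.09 without the third OPC lesion, and the latter was 0.20 without the second OPC lesion and 1.26 without the second high-DOX tumor.

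Dll1, an activating ligand of neural progenitors, had values of 7.09, 5.90 and 6.87 in high-DOX tumors, 6.09, 6.35 and 5.26 in low-DOX tumors and 5.85, 6.26 and 6.71 in OPC lesions. As for Dll3, the first and the third high-DOX tumors and the third OPC lesion were the highest arrays, whereas the third low-DOX tumor was the lowest. The high against low difference of 0.72 (95% interval -0.21 to 1.65; limma adjusted p = 0.574) was 0.40 without that low-DOX tumor. Low DOX and high DOX differed from OPC lesions by -0.37 and 0.35, and neither passed the test. The former was -0.05 without the third low-DOX tumor, and the latter was between 0.11 and 0.71 with 1 array left out. A second Dll1 probe set with a lower mean lay between 4.68 and 5.32 in all arrays, and the mean of both probe sets gave a high against low difference of 0.48. Jag1, an activating ligand that vessels also express, had values of 8.44, 6.68 and 8.70 in high-DOX tumors, 7.00, 7.57 and 8.83 in low-DOX tumors and 6.71, 7.04 and 8.13 in OPC lesions. Every group held both low and high arrays, and the second high-DOX tumor was the lowest of all. Between the doses the difference was 0.14 (95% interval -1.42 to 1.70; limma adjusted p = 0.961), and low DOX and high DOX were above OPC lesions by 0.51 and 0.65 with intervals of -1.05 to 2.07 and -0.91 to 2.21.

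Of the effectors, Hes5 had the widest spread. Hes5 encodes a bHLH repressor that is a direct target of Notch in neural progenitors and is the gene whose promoter above holds the RBPJ core. Its values were 7.80, 7.25 and 7.49 in high-DOX tumors, 7.21, 6.73 and 6.80 in OPC lesions and 6.05, 7.78 and 4.67 in low-DOX tumors. The high-DOX tumors lay just above the OPC lesions without overlap, while the low-DOX tumors held both the lowest array and nearly the highest. The means were 7.51 ± 0.275, 6.92 ± 0.262 and 6.17 ± 1.56 (SD, n = 3). High against low DOX gave 1.34 (95% interval -0.20 to 2.89; limma adjusted p = 0.536), low DOX against OPC lesion gave -0.75 (95% interval -2.29 to 0.80; adjusted p = 0.713) and high DOX against OPC lesion gave 0.60 (95% interval -0.95 to 2.14; adjusted p = 1). The low-DOX arrays set the size of both comparisons that involve them. Without the third low-DOX tumor the high against low difference was 0.59 and low DOX against OPC lesion was 0.0026, and without the second low-DOX tumor these values were 2.15 and -1.56. A second Hes5 probe set lay between 5.86 and 6.48, with its lowest value again in the third low-DOX tumor. In that probe set the high-DOX tumors (6.33, 6.19 and 6.48) overlapped the OPC lesions (6.26, 6.28 and 6.33). The mean of both probe sets gave a high against low difference of 0.74.

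Hes1, the most broadly expressed Notch effector of the Hes family, had values of 7.01, 6.75 and 7.58 in high-DOX tumors, 6.23, 6.51 and 6.94 in low-DOX tumors and 7.29, 6.62 and 7.04 in OPC lesions. The groups overlapped, with the lowest pair of arrays at low DOX. High against low DOX differed by 0.55 (95% interval -0.10 to 1.20; limma adjusted p = 0.543), that of low DOX against OPC lesion was -0.42 (95% interval -1.07 to 0.23) and that of high DOX against OPC lesion was 0.13 (95% interval -0.52 to 0.78). Hey1, a related repressor also active in endothelium, was nearly constant in the OPC lesions at 8.77, 8.72 and 8.79. Its values were 8.42, 8.73 and 7.68 in low-DOX tumors and 8.26, 9.19 and 8.72 in high-DOX tumors, so that the tumors spread on both sides of the OPC lesions. Between the doses the difference was 0.45 (95% interval -0.26 to 1.16; limma adjusted p = 0.636) and was 0.15 without the third low-DOX tumor. Low DOX and high DOX against OPC lesion gave -0.49 (95% interval -1.20 to 0.22) and -0.04 (95% interval -0.74 to 0.67), the former being -0.19 without the third low-DOX tumor. Hes6 had the closest group means of the members, 6.28 ± 0.161 in OPC lesions, 6.35 ± 0.331 in low-DOX and 6.29 ± 0.378 in high-DOX tumors (SD, n = 3). Its values lay between 5.98 and 6.73, and the 95% interval of the high against low difference was -0.60 to 0.48. The sign of its differences changed when each array was centered on its median.

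**Figure D2:**
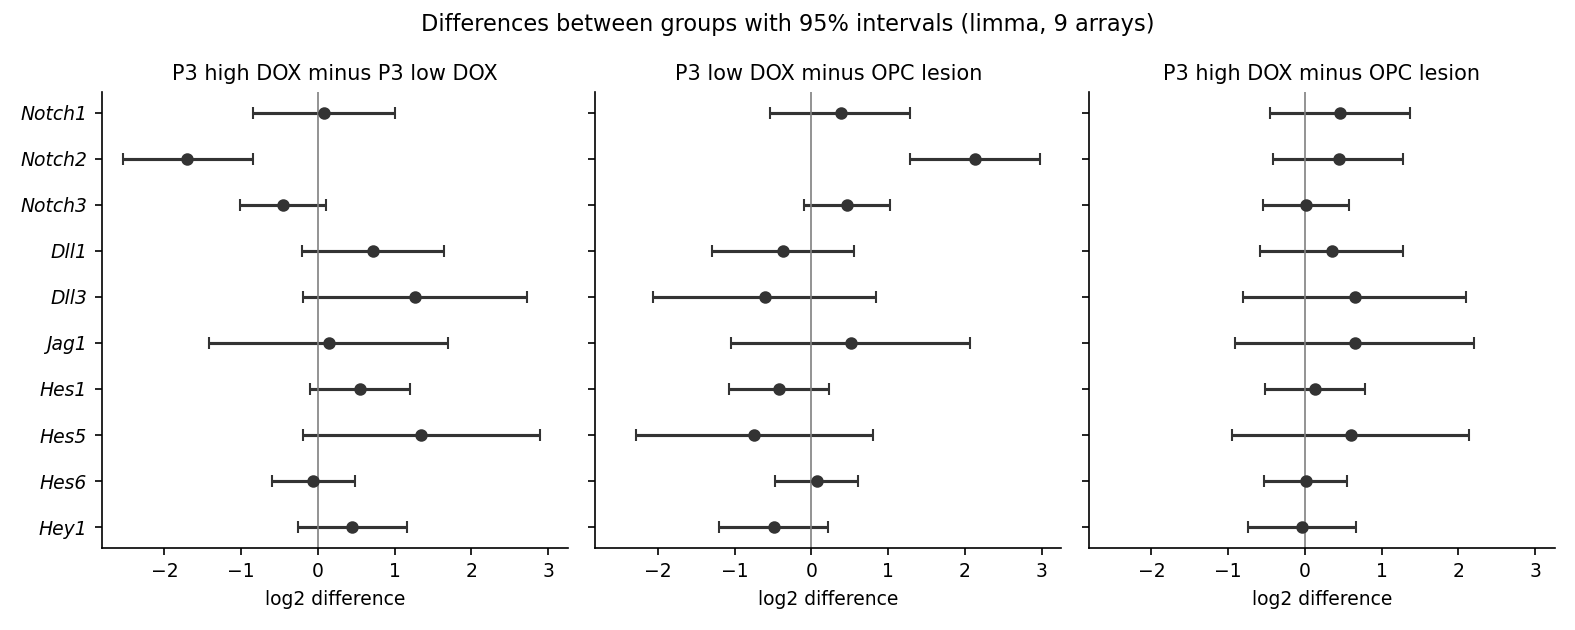
Log2 differences between groups for the 10 members in 3 comparisons. The horizontal axis is the log2 difference, points are limma estimates over 9 arrays and bars are 95% intervals. The intervals of Notch2 leave out 0 in the panels that involve low DOX, and those of the other members include 0.

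Ordered by group mean, low-DOX tumors were highest and OPC lesions lowest for Notch2, whereas Dll1, Dll3, Hes1 and Hes5 had high-DOX tumors highest and low-DOX tumors lowest. Notch1 and Jag1 were highest in high-DOX tumors and lowest in OPC lesions, Notch3 and Hes6 had the order of Notch2 with high-DOX tumors and OPC lesions within 0.01 of each other, and Hey1 was lowest in low-DOX tumors. No neighbors in these orders differed past the adjusted threshold. By limma, 0 of the 10 members and 0 of 22180 genes passed the adjusted threshold in each of the 4 comparisons, so the share called over all genes was 0%. At an unadjusted p under 0.05, high against low DOX held 1 member (Notch2) beside 10.1% of all genes, and low DOX against OPC lesion held the same member beside 9.82%. The groups did not overlap for 2 members (Notch2 and Notch3) between the doses, where 16.0% of all genes did not overlap. For low DOX against OPC lesion this held for 1 member (Notch2) beside 14.3% of all genes. For high DOX against OPC lesion it held for 1 (Hes5, by the probe set of higher mean only) beside 6.36%. For the mean of both doses against OPC lesion it held for 0 members beside 1.83% of all genes, and 1 member (Notch2) had an unadjusted p under 0.05 beside 3.85%. The shares among the members rest on 10 genes and were near those of all genes. The median difference of the members was 0.29 for high against low DOX, -0.15 for low DOX against OPC lesion and 0.39 for high DOX against OPC lesion. The medians over all genes were -0.00021, -0.0034 and -0.01. Members above 0 numbered 7 of 10 between the doses, 5 of 10 for low DOX against OPC lesion and 9 of 10 for high DOX against OPC lesion, beside 50%, 49.4% and 48.2% of all genes. The 9 include Notch3 and Hes6 at 0.01, which were below 0 when each array was centered on its median. These comparisons share arrays, so their values are not independent.

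The third low-DOX tumor and the second high-DOX tumor stood apart from their groups in ways that touch several members. In the third low-DOX tumor the mean of 6 fibroblast markers was 10.46 against 5.47 to 7.03 in the other arrays, and this array had the highest Notch2 and Jag1 and the lowest Hes5, Dll1 and Hey1 of all 9. The second high-DOX tumor had a mean of 7.05 over 9 choroid plexus and ependyma markers against 4.45 to 4.62 elsewhere, with Ttr, the choroid plexus transthyretin gene, at 12.46 against 4.68 to 5.32. It also had the highest neuron list mean, 10.59, followed by the first OPC lesion with 10.39. These neuron-rich arrays had the lowest cell cycle list means, 6.99 and 7.20, and the lowest Notch1 values. The OPC marker list had means between 9.65 and 11.28 in all arrays. Of its 10 genes, Pdgfra lay between 9.90 and 12.96 and Olig2 between 10.28 and 12.01. OPC markers thus had signal in tumors and OPC lesions alike. P3 tumors also carry the human PDGFRα transgene, and its part in the Pdgfra values was not tested. Between the doses and for low DOX against OPC lesion the microglia and mural list means reached an exact p of 0.1, the smallest that 3 against 3 can give, as did the neuron list between the doses. The part of these arrays' cell content in the members' values was not tested.

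**Figure D3:**
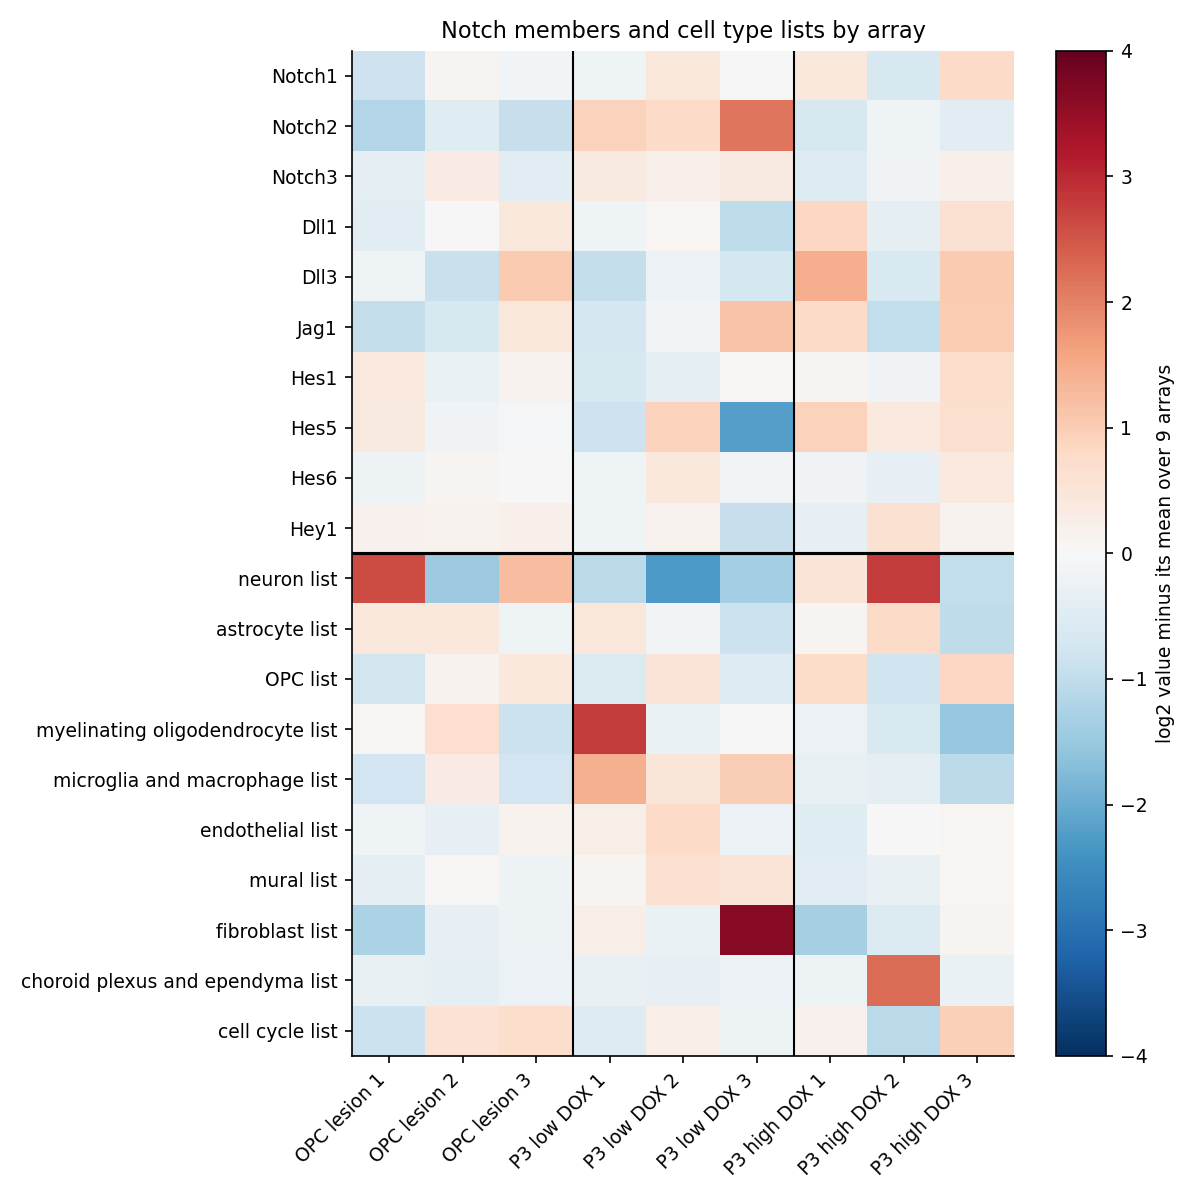
Each of the 10 members and 10 cell type or cell cycle lists by array. Color is the log2 value, or list mean, minus its mean over the 9 arrays, columns are arrays and vertical lines separate the groups. The third low-DOX column combines the highest fibroblast list, 10.46 before centering, with the highest Notch2 and the lowest Hes5.

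Members varied together in part across the arrays. Of 45 pairs, 32 had a Pearson r above 0 over the 9 arrays, and 27 had one above 0 after group means were subtracted. After Benjamini-Hochberg adjustment over the 45 pairs 0 passed for Pearson's r and 0 for Spearman's rho in exact permutation tests, with 6 pairs at an unadjusted p under 0.05 for each. The ligands Dll1 and Dll3 had r = 0.81 (exact permutation p = 0.00842, adjusted p = 0.253) and rho = 0.67 (exact permutation p = 0.0589, adjusted p = 0.285), with r = 0.79 without the 2 arrays farthest from the median of Dll1 and r = 0.72 within groups. Notch1 and Hes6 had r = 0.79 (exact permutation p = 0.0124, adjusted p = 0.253) and rho = 0.85 (exact permutation p = 0.00607, adjusted p = 0.137), with r = 0.71 without the 2 farthest arrays and r = 0.85 within groups. Notch2 and Notch3 had r = 0.71 (exact permutation p = 0.0278, adjusted p = 0.253) and rho = 0.80 (exact permutation p = 0.0138, adjusted p = 0.207), with 0.60 without the 2 farthest arrays and 0.43 within groups. Dll1 and Hes5 had r = 0.72 (exact permutation p = 0.0256, adjusted p = 0.253), with 0.19 without the 2 farthest arrays and 0.59 within groups. Notch1 and Jag1 had r = 0.70 (exact permutation p = 0.0375, adjusted p = 0.253), with 0.50 without the 2 farthest arrays and 0.66 within groups. In each pair the farthest arrays are those farthest from the median of the gene named first. Notch2 and Hes5 had r = -0.71 (exact permutation p = 0.0351, adjusted p = 0.253) and rho = -0.35 (exact permutation p = 0.359, adjusted p = 0.598). Within groups this r was -0.86. Without the 2 farthest arrays it was 0.50, so its sign over the 9 arrays rests on them. The arrays also share tissue content, as the lists above show.

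**Figure D4:**
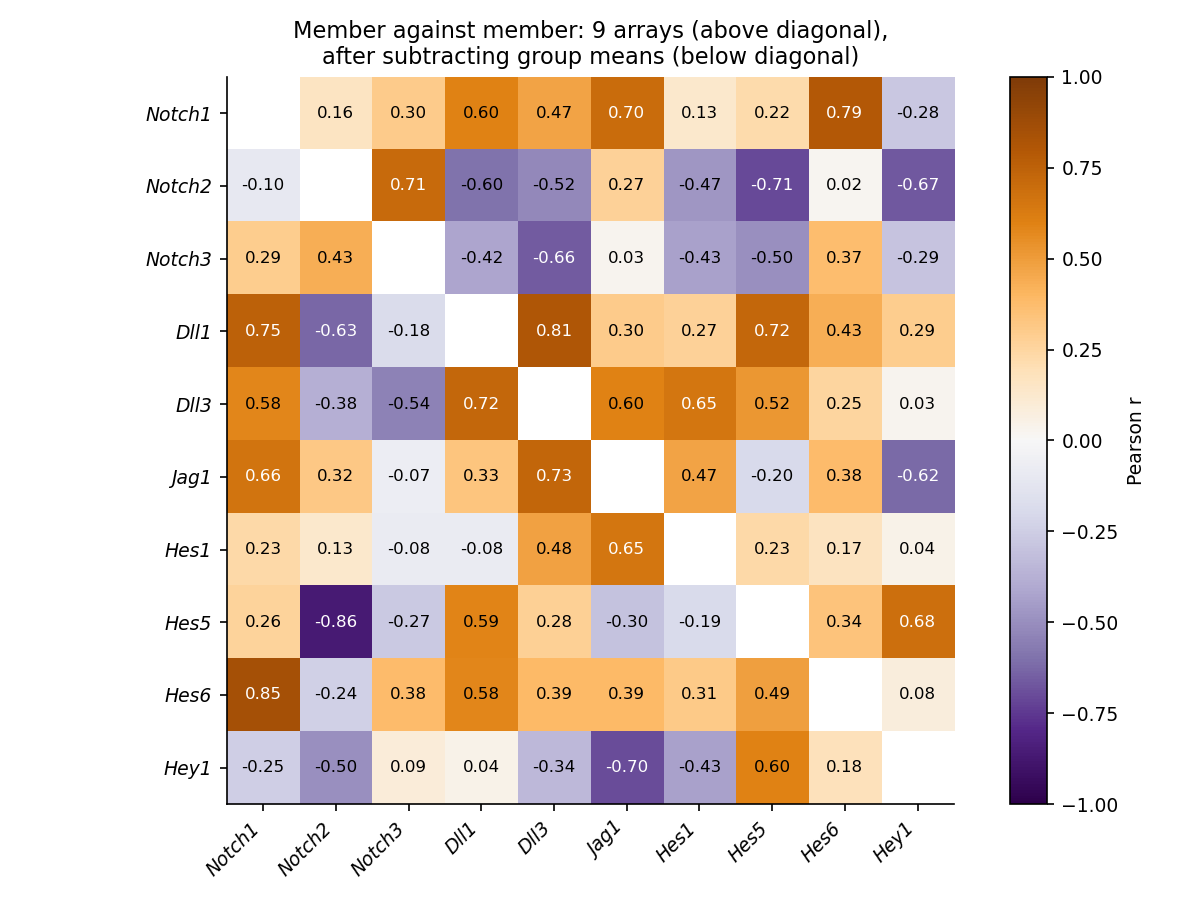
Pearson r between members. Cells above the diagonal use the 9 arrays and cells below it use the same arrays after the group means were subtracted, with color from -1 to 1. Dll1 with Dll3 and Notch1 with Hes6 have the highest values above the diagonal, 0.81 and 0.79.

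Over the 9 arrays the genes with the highest r to each member, of 22179 others, are given as descriptions of likeness only. Tns1 (r = 0.98) and Foxc1 (0.969) were nearest to Notch2, where Foxc1 is a transcription factor of meningeal and mural cells. Rin2 (0.989) and Efs (0.978) were nearest to Notch1, and Itgb3 (0.949) and Enpp6 (0.941), an enzyme of newly formed oligodendrocytes, to Notch3. Iftap (0.962) and Kcnh8 (0.96) were nearest to Dll3, Zfp780b (0.986) and Timm50 (0.971) to Dll1, and Gas1 (0.952) and Phf21a (0.95) to Jag1. Tmem132b (0.957) and Wac (0.954) were nearest to Hes5, Asap1 (0.961) and Limk1 (0.948) to Hes1, Snrpd3 (0.96) and Med30 (0.958) to Hes6, and Wdr18 (0.965) and Mrpl38 (0.962) to Hey1. These are the top of a ranking of many genes over 9 arrays, and no test was made.

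The remaining pathway was followed in a list of 55 further genes, of which 53 were measured. By limma 0 of the 53 passed the adjusted threshold in any of the 4 comparisons. Between the doses 29 were above 0 and 24 below, with a median of 0.05. The groups did not overlap for 9 of them (17.0%), near the 16.0% of all genes. At an unadjusted p under 0.05 there were 3 higher and 3 lower at high DOX, 11.3% of the list beside 10.1% of all genes. Low DOX against OPC lesion had 4 such genes (7.55%, beside 9.82% of all genes), both doses against OPC lesion 3 (5.66%, beside 3.85%) and high DOX against OPC lesion 0 (beside 1.62%).

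Nrarp, Neurl1b, Neurl1a and Dner had the largest differences between the doses in this list, all with higher means at high DOX. Nrarp, a direct Notch target that limits the signal, had values of 7.41, 7.83 and 7.45 in high-DOX tumors, 6.16, 7.16 and 5.80 in low-DOX tumors and 7.33, 6.84 and 7.46 in OPC lesions. The low-DOX tumors lay below the high-DOX tumors without overlap, and the difference was 1.19 (95% interval 0.40 to 1.99; limma adjusted p = 0.402). Without the third low-DOX tumor it was 0.91. Neurl1b, a ubiquitin ligase for Notch ligands, was at 6.98, 7.70 and 6.84 in high-DOX tumors against 5.33, 6.26 and 5.68 in low-DOX tumors, also without overlap (1.42, 95% interval 0.43 to 2.40; adjusted p = 0.413). Its OPC lesion values, 7.20, 5.74 and 6.87, overlapped those of both doses, and high DOX exceeded OPC lesion by 0.57 (95% interval -0.42 to 1.55; adjusted p = 1). Neurl1a, its paralog, gave 1.43 between the doses (95% interval -0.20 to 3.06; adjusted p = 0.535) and -1.09 for low DOX against OPC lesion, and Dner, a neuronal Notch ligand, gave 1.35 (95% interval -0.09 to 2.79; adjusted p = 0.516) and -1.04. Without the third low-DOX tumor the Dner values were 0.80 and -0.49, and without the first they were 2.05 and -1.74. Neurl1a and Fbxw7, the ubiquitin ligase that turns over the intracellular Notch domain, were highest in the same neuron-rich arrays, with Neurl1a at 9.41 and 8.94 and Fbxw7 at 9.45 and 9.50 in the second high-DOX tumor and the first OPC lesion. In the other arrays Fbxw7 lay between 6.90 and 7.79, and low DOX against OPC lesion gave -0.92 (95% interval -2.65 to 0.81; adjusted p = 0.687), or -0.21 without the first OPC lesion. Neurl1b was likewise highest in these neuron-rich arrays, at 7.70 and 7.20. Without the second high-DOX tumor its difference between the doses was 1.15. Dner and Nrarp were also highest in that tumor, at 10.35 and 7.83. The part of the neuron content in these values was not tested.

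Rbpj and Kat2b, of the nuclear complex, had lower means at high DOX. Rbpj, the DNA-binding partner of every Notch receptor, was at 8.62, 8.50 and 8.90 in low-DOX tumors, 7.81, 8.11 and 8.21 in high-DOX tumors and 7.73, 8.66 and 8.59 in OPC lesions. The doses did not overlap, and the difference was -0.63 (95% interval -1.23 to -0.03; limma adjusted p = 0.471). Kat2b, an acetyltransferase recruited to the complex, was at 9.06, 8.18 and 8.17 in low-DOX tumors, 7.78, 7.24 and 7.89 in high-DOX tumors and 7.29, 8.08 and 7.50 in OPC lesions. The doses did not overlap, with a difference of -0.83 (95% interval -1.57 to -0.10; adjusted p = 0.447). Without the first low-DOX tumor, which had the highest myelinating oligodendrocyte list mean at 10.92, this was -0.54. Against OPC lesions low DOX gave 0.85 for Kat2b (95% interval 0.11 to 1.58; adjusted p = 0.486). The other genes of the list with an unadjusted p under 0.05 between the doses were Dtx1, a Notch ubiquitin ligase (0.82), and Mfng, a glycosyltransferase of the receptor (-0.48), named after their values were seen. The largest differences of high DOX against OPC lesion were small beside their intervals, with Tle2, a corepressor of Hes proteins, at 0.58 (95% interval -0.60 to 1.75), Aph1c, a subunit of γ-secretase, at 0.51 (95% interval -0.03 to 1.05) and Maml3, a coactivator, at 0.44 (95% interval -0.26 to 1.15), each with a limma adjusted p of 1. The first high-DOX tumor had a Tle2 value of 8.56 against 6.23 to 7.65 in the other arrays, and without it the Tle2 difference was 0.02. For both doses against OPC lesion these genes gave 0.51, 0.49 and 0.46 and Fbxw7 gave -0.47, with limma adjusted p values of 0.974 or 0.975. Without the first OPC lesion the Fbxw7 difference was 0.25.

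**Figure D5:**
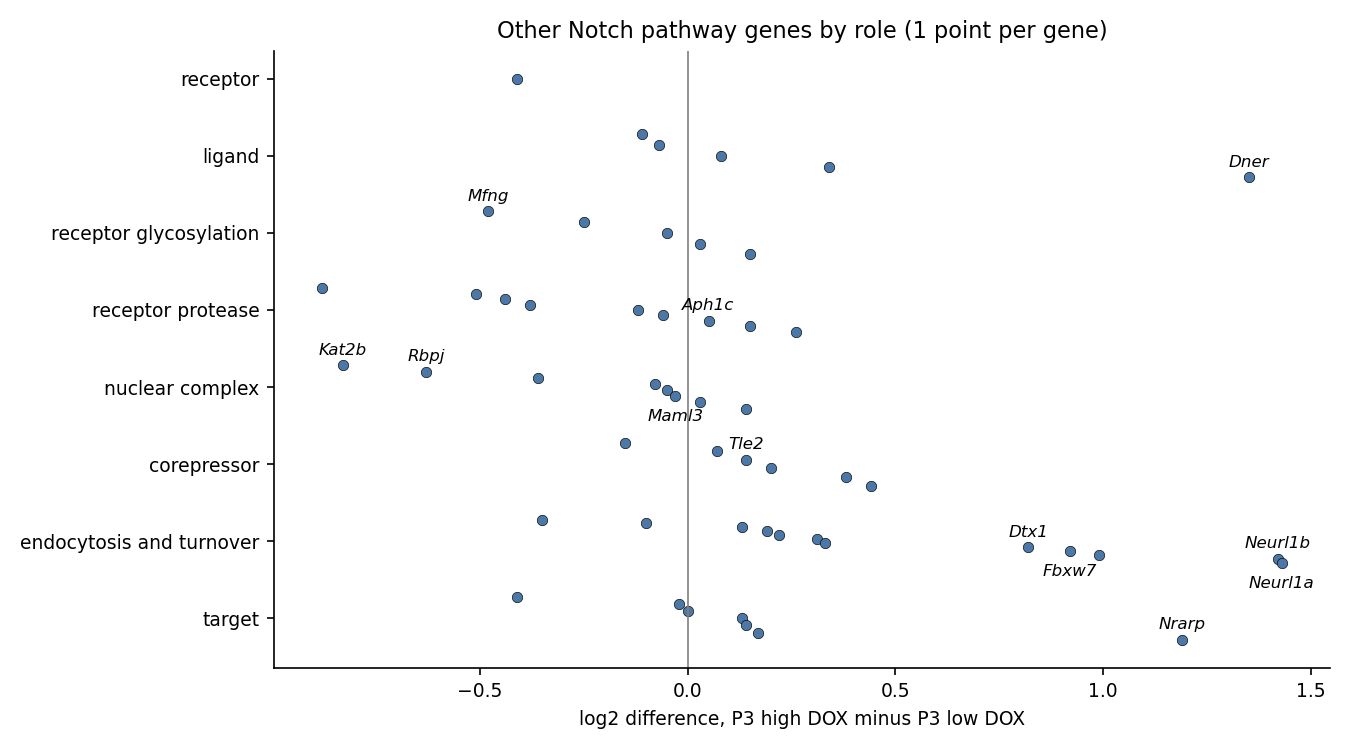
The 53 further pathway genes by role, for high against low DOX. The horizontal axis is the log2 difference and each point is 1 gene, with names for those largest in a comparison or with an unadjusted p under 0.05. Nrarp, Dner, Neurl1a and Neurl1b lie at 1.19 to 1.43, and Rbpj and Kat2b at -0.63 and -0.83.

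A list of proneural and related transcription factors and the Id genes were also followed. By limma 0 of the 9 measured factors of that list passed the adjusted threshold and 0 had an unadjusted p under 0.05 in any comparison. The median difference between the doses was 0.09. For low DOX against OPC lesion 4 of the 9 were above 0 and 5 below, with Neurod2 at -1.56 and Neurod6 at -1.63. Both were highest in the neuron-rich second high-DOX tumor and first OPC lesion, and the part of neuron content was not tested. Of the Id genes, whose proteins bind and block bHLH partners, Id1 and Id3 followed the pattern of Notch2, as was seen after their values were known. Id3 was at 8.78, 9.06 and 9.11 in low-DOX tumors, 7.90, 7.79 and 7.78 in high-DOX tumors and 7.18, 8.32 and 7.25 in OPC lesions. The low-DOX tumors lay above all other arrays. High against low DOX gave -1.16 (95% interval -1.82 to -0.50; limma adjusted p = 0.376), and low DOX against OPC lesion gave 1.40 (95% interval 0.73 to 2.06; adjusted p = 0.418). Without the second OPC lesion, the highest of its group, the latter was 1.76 with an adjusted p of 0.0274, and over all alternatives its adjusted p was between 0.0274 and 0.833. Id1 gave -0.64 between the doses (95% interval -1.06 to -0.21; adjusted p = 0.401) and 0.54 for low DOX against OPC lesion (95% interval 0.12 to 0.97; adjusted p = 0.467). Id2 and Id4 gave -0.02 and 0.02 between the doses. As for Notch2, the microglia and mural lists differ between the same arrays, and their part was not tested.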

How the data were processed

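Total RNA of flash-frozen lesions was hybridized to Affymetrix MoGene-2_0-st arrays. The deposited log2 values were made by the authors with robust multichip averaging (RMA, no version stated), followed in their methods by a surrogate variable step that may or may not be in these values. Array medians were between 4.55 and 4.825 over 41345 probe sets, with precision limited by having 3 arrays a group. Tests used 22180 genes, each through a probe set naming it alone (23521 in all). Where a gene had several (1082 genes), the one of highest mean was taken. The 1820 probe sets that name several genes were left out, and 0 value columns were unmapped. Highest and lowest correlations between arrays were 0.985 and 0.901, so no arrays were treated as duplicates.

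limma 3.58.1 (R 4.3.3) was fitted over all 9 arrays with 3 groups, with Benjamini-Hochberg adjustment over all genes and a threshold of 0.05, and was tested on simulated data. Exact two-sided permutation tests served single values and the relations between members, for which the p values were added to the planned description. The members and lists were chosen with earlier results of these data known. Named genes are the members, the 4 listed pathway genes with the largest difference in each comparison, and the 2 genes most like each member. Others were named after their values were seen, among them Id1 and Id3. Motifs were searched with Python 3.11.15. Alternatives were other scalings, a filter on the lowest 25% of genes, averaging of probe sets per gene, another variance prior, only the groups compared, the replicate number as a block, the methods' t-test, and leaving out arrays. After the values were seen, the omission of the neuron-rich pair of arrays, and of the choroid plexus array with the third low-DOX array, was added.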

Additional observations from a re-analysis of the deposited data

How the results depend on the processing

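Over 20 alternative settings, 0 members and 0 of the further pathway genes passed the adjusted threshold, including with the replicate block (0 in each comparison) and with each array left out in turn (0 to 0). Same-numbered arrays of different groups had correlations of their deviations between -0.48 and 0.27. Arrays of different numbers were not compared in this way, so whether replicate numbers pair the samples was not settled. The block changed no call, but the main fit called 0 genes, so this cannot tell pairing from its absence. The methods' t-test without adjustment called 1 member between the doses and 1 for low DOX against OPC lesion (Notch2 in both), and 3 further pathway genes between the doses, 3 for low DOX against OPC lesion and 2 for both doses against OPC lesion, and 0 after Benjamini-Hochberg adjustment. Of the 1212 values of single genes under the alternatives, 1168 kept direction and side of the threshold, 12 passed the threshold, 11 of them by the unadjusted t-test and 1 for Id3 given above, and 32 reversed, 31 of them of members. Median centering, which moved the median of all genes to 0.11 between the doses, -0.18 for low DOX against OPC lesion, -0.07 for high DOX against OPC lesion and -0.13 for both doses, turned Hes6 to -0.06 (high DOX against OPC lesion), 0.05 (between the doses) and -0.11 (low DOX against OPC lesion) and Notch3 to -0.05 (high DOX against OPC lesion). Without the neuron-rich pair Hes6 was 0.09 between the doses and -0.02 for low DOX against OPC lesion, and Notch3 was -0.10 for high DOX against OPC lesion. Without the choroid plexus array and the third low-DOX array Hes5 was 0.0026 and Jag1 -0.01 for low DOX against OPC lesion, and Hes6 was 0.01 and Hey1 -0.08 between the doses. With 1 array left out, the values between the doses ranged from -0.27 to 0.13 for Hes6, -0.26 to 0.77 for Jag1 and -0.21 to 0.50 for Notch1. Those of low DOX against OPC lesion ranged from -1.56 to 0.0026 for Hes5, -0.12 to 0.18 for Hes6 and -0.01 to 0.93 for Jag1. Those of high DOX against OPC lesion ranged from -0.11 to 0.31 for Hes1, -0.20 to 0.16 for Hes6, -0.27 to 0.20 for Hey1 and -0.16 to 0.25 for Notch3, and Fbxw7 ranged from -1.05 to 0.25 for both doses against OPC lesion. The cause was not tested. The adjusted p of Notch2 over the alternatives other than the unadjusted t-test was between 0.121 and 0.833 for low DOX against OPC lesion and between 0.172 and 0.88 between the doses. Fitting only the groups compared does not apply to the mean of both doses.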
